A study of Mus musculus with 8 samples.

Results

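Tbx2, Tbx3, Tbx4, Tbx5, Tcf21, Twist1, Twist2, Meox2, Prrx1 and Osr1 encode transcription factors of the embryonic and neonatal lung mesenchyme. These 10 genes were chosen by name, through their mouse Ensembl identifiers, from the 43432 genes of a deposited table of raw RNA-seq counts. They and the gene lists set beside them were picked with earlier results of these data known. All 10 were found, and all 10 passed the filter on low counts that left 15422 genes for testing. The table holds 8 libraries of lung myofibroblasts, the contractile, elastin-depositing mesenchymal cells of the growing alveolar wall, from C57BL/6 mice at postnatal day 7. In 4 libraries the genotype is labelled as transgenic for Fra-2 with constitutive expression (Fra-2 1 to Fra-2 4), and in 4 it is labelled wild type (control 1 to control 4). Strain, age and cell type are shared by both groups. The sources used here do not give the promoter that drives the transgene or the way the cells were isolated. Nothing in the labels ties each library to an animal of its own, and p-values therefore cover the spread between these samples, which may be technical in part.

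T-box factors bind DNA through a shared domain. In the lung, Tbx4 and Tbx5 act with the growth factor gene Fgf10 in the mesenchyme during branching, while Tbx2 and Tbx3 are mainly repressors that hold back inhibitors of the cell cycle. Tcf21, Twist1 and Twist2 are basic helix-loop-helix (bHLH) factors that bind the short E-box sequence as dimers with the E proteins. Meox2 and Prrx1 are homeobox factors, and Osr1 is a zinc finger factor of the odd-skipped family that marks early foregut and lung mesoderm.

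Total counts were 29926239 to 41335957 per library, and each group held 2 female and 2 male libraries as read from Xist and 4 Y-linked genes. Neither group therefore came from a single animal, but libraries of the same sex may share an animal. Fosl2, which encodes Fra-2, measured 132 ± 25.6 CPM (counts scaled to the size of the library) in libraries labelled Fra-2 transgenic and 120 ± 14.96 CPM in the control libraries (SD, n = 4 each). Its fold change was 1.10 with a 95% interval of 0.898 to 1.34 (edgeR adjusted p = 0.888), and a two-sided exact permutation test gave p = 0.457, where 0.0286 is the smallest that 4 against 4 allows. Because Fosl2 did not separate the groups, they are called by their labels throughout. Myofibroblast genes were abundant, with Pdgfra, the receptor of alveolar myofibroblast precursors, at a mean of 1242 CPM in the group labelled Fra-2 transgenic and 1138 CPM in the controls, and the elastin gene Eln at 2350.2 and 1793 CPM in the same order. Aspn of the same list measured 635 and 884 CPM in the same order (log2 fold change -0.48, edgeR adjusted p = 0.219). Of 12 alveolar myofibroblast markers, 7 had a log2 fold change above 0, with a median of 0.07. Transcripts of other lung cells were present at varied levels. Among epithelial markers, Epcam measured 0.925 and 1.27 CPM and the surfactant gene Sftpc 63.4 and 44.6 CPM in the same order. The endothelial marker Cdh5 measured 27.7 and 24.5 CPM, the leukocyte markers Ptprc and Lyz2 8.52 and 8.57 CPM and 51.7 and 42.7 CPM, and the mesothelial marker Wt1 0.293 and 0.0459 CPM, with Wt1 at 0 in 3 of the 4 controls. Wt1 was not tested. Log2 fold changes exceeded 0 in 8 of 12 tested epithelial, 10 of 11 endothelial, 4 of 10 leukocyte and 5 of 6 mesothelial markers. Medians were 0.22, 0.18, -0.02 and 0.95 in that order, and over all tested genes 47.8% exceeded 0 with a median of -0.01. At an unadjusted edgeR p under 0.05, 1, 1, 0 and 2 were higher and 0 lower. In these lists edgeR called 0, and DESeq2 called Sftpb alone. Pericyte and smooth muscle markers reached above 1000 CPM in single genes. Of 9 pericyte markers, 5 had a log2 fold change above 0, with a median of 0.08, and 0 were called in edgeR. Their most abundant gene per kb of exons, Rgs5, stood at 1024 CPM in libraries labelled Fra-2 transgenic and 1390.3 CPM in the controls (edgeR adjusted p = 0.0920, and 0.0142 in DESeq2). Kcnj8, Higd1b and Abcc9 were also lower, with log2 fold changes of -0.44, -0.29 and -0.09. Notch3, Cox4i2 and Postn had log2 fold changes of 0.32, 0.53 and 0.12. At an unadjusted edgeR p under 0.05, 1 pericyte marker was higher and 2 lower, beside 8.71% of all tested genes in either direction.

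Levels of the 10 genes differed widely once divided by exon length. On the scale of CPM per kb of merged exons, Tbx4 averaged 174 in libraries labelled Fra-2 transgenic and 160 in the controls, and Tbx5 averaged 161 and 148. Over all libraries, both levels lay above those of 99.1% and 99.0% of the 15329 tested genes with a known exon length. Tbx2 (43.8 and 45.9 CPM per kb) and Tbx3 (50.8 and 38.6 CPM per kb) came next, each above about 95.6% of genes. Osr1 stood at 24.4 and 22.0 CPM per kb and Meox2 at 20.96 and 15.5. Tcf21 stood at 8.04 and 6.50 CPM per kb and Prrx1 at 4.44 and 3.57, near the middle of all tested genes. The Twist genes were the lowest, Twist2 at 1.25 and 0.880 CPM per kb and Twist1 at 0.750 and 1.28. Merged exons count every annotated isoform, 11066 bases for Prrx1, and which exons were used in these cells was not measured. Twist2 shares 1477 of its 3174 merged exon bases with an antisense gene. How reads of shared bases were counted is not given. If they were left out, the level of Twist2 per kb and its order beside Twist1 would be understated.

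**Figure D1:**
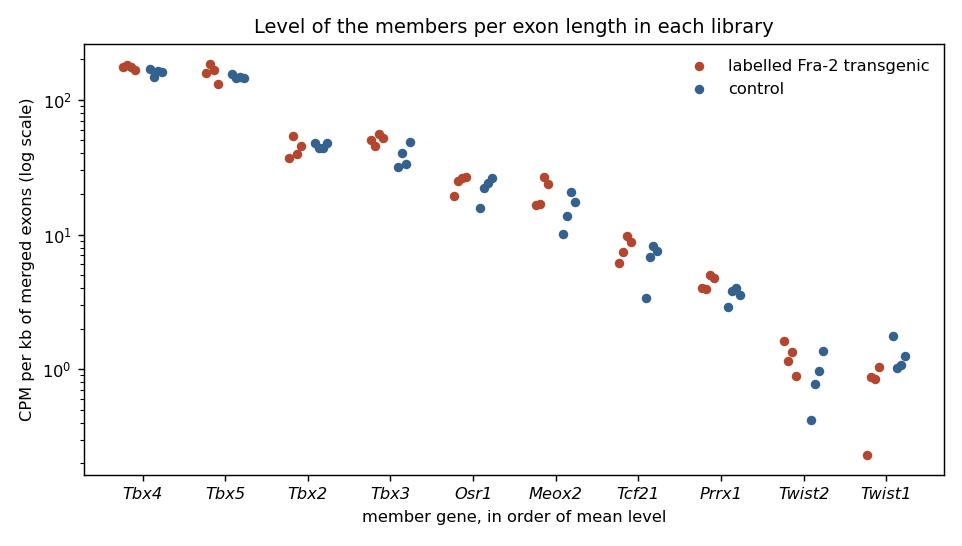
Level of each member gene in CPM per kb of merged exons (log scale) in every library, with libraries labelled Fra-2 transgenic left of controls within each gene and genes in order of mean level. Tbx4 and Tbx5 lie above all libraries of every other member, and Twist2 and Twist1 lie at the bottom.

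The order of the levels was clear between some neighbours and not between others. Every library of Tbx5 lay above every library of Tbx2, every library of Tbx3 above Osr1, every library of Meox2 above Tcf21, and every library of Prrx1 above Twist2. Tbx4 was above Tbx5 in 7 of 8 libraries, with overlapping ranges of 149 to 180.4 and 131 to 186 CPM per kb. Tbx2 was above Tbx3 in 4 of 8 libraries, and Twist2 above Twist1 in 4 of 8. Osr1 was above Meox2 in 7 of 8 libraries, and Tcf21 above Prrx1 in 8 of 8 although their ranges overlapped. Per kb, the 4 T-box genes made up 85.7% to 92.1% of the summed level of all 10 genes, with both ends of the range in single libraries, Fra-2 4 and control 1.

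Promoter sequences from RefSeq (build GRCm38.p6, 250 bases before to 50 after a start site) were at hand for 6 of the 10 genes. Tbx2, Tbx3, Tbx5 and Osr1 had none. The windows given here are those of the most abundant gene per kb, Tbx4, and of the 2 least abundant, Twist1 and Twist2. They were picked as the ends of this range of levels, and a link between sequence and level was not tested. Sequences run 5′ to 3′ on the gene's strand and capitals mark E-boxes (CANNTG on either strand). The Tbx4 window (chr11:85896515-85896814, plus strand) surrounds a start site 10343 bases inside the GENCODE gene. Whether these cells use that start was not measured. The Twist1 window is chr12:33957421-33957720 (plus strand) and the Twist2 window is chr1:91801211-91801510 (plus strand).
Tbx4: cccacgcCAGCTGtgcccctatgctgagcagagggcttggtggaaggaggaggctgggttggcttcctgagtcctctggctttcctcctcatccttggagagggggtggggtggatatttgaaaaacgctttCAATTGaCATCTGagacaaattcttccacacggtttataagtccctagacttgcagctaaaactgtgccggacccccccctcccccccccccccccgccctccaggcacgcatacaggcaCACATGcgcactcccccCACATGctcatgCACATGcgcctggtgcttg
Twist1: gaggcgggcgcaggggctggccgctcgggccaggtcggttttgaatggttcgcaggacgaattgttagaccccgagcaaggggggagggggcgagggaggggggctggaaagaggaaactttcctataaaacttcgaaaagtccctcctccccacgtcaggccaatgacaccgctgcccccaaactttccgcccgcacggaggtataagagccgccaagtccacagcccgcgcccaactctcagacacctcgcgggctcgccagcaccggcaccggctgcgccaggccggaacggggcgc
Twist2: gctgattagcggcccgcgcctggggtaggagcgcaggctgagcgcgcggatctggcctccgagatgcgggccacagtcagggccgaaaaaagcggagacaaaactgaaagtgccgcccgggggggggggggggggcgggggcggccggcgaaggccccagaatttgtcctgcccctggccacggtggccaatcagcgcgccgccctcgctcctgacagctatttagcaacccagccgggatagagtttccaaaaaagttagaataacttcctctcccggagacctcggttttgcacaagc

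The Tbx4 window held 6 E-boxes, and the Twist1 and Twist2 windows held 0, against a share of 72.3% of all 32851 RefSeq windows with at least 1. Among the other windows, that of Meox2 held 1 E-box and those of Tcf21 and Prrx1 held 0. The Twist1 and Twist2 windows held 27 and 25 CpG dinucleotides, the Meox2 window 12, the Tbx4 and Tcf21 windows 8 each and the Prrx1 window 6. CpG counts over all RefSeq windows were not measured. None of the 6 windows held an AP-1 site (TGANTCA, either strand, found in 7.81% of all windows), the kind of site that dimers with Fra-2 bind. None held the T-box element AGGTGTGA on either strand, found in 1.28% of windows. The 3 motifs were searched separately, with overlaps allowed. These are matches of letters in short windows and no measure of binding.

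None of the 10 genes passed the test between the groups. In edgeR's quasi-likelihood test, with Benjamini-Hochberg adjustment over all 15422 genes, 0 of 10 were higher and 0 lower in the group labelled Fra-2 transgenic at an adjusted p under 0.05. Over all tested genes, 1.02% were called in either direction. DESeq2 and limma-voom also called 0 of 10. At an unadjusted edgeR p under 0.05, Tbx3 and Prrx1 passed, 2 of 10 against 8.71% of all tested genes. In none of the 10 did the groups separate without overlap, as they did in 5.76% of tested genes, 3.35% higher and 2.41% lower. The log2 fold changes ran from -0.77 for Twist1 to 0.51 for Twist2. Of the 10, 8 were above 0, with a median of 0.23 beside a median of -0.01 and 47.8% above 0 over all tested genes. Because the 10 were picked with earlier results of these data known, this lean is a description only.

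**Figure D2:**
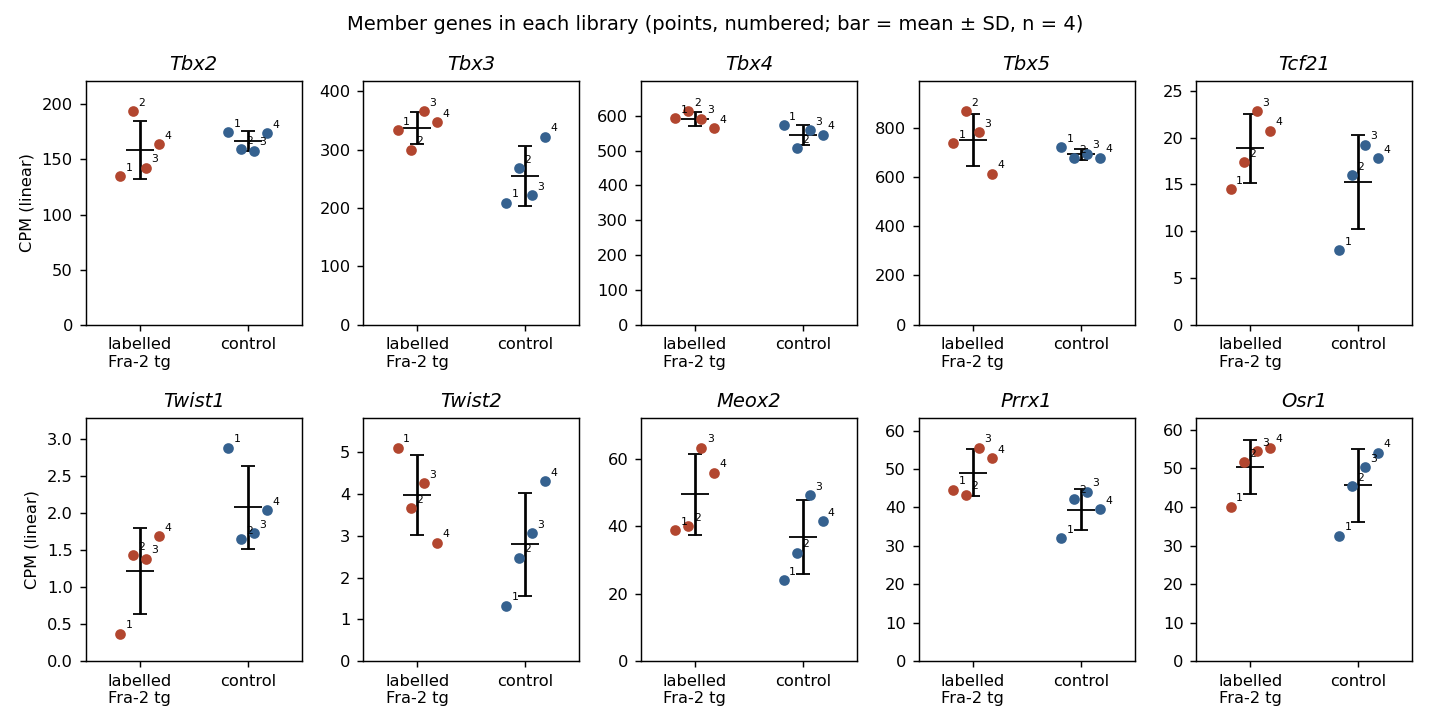
CPM (linear axes from 0) of each member gene in the 4 libraries labelled Fra-2 transgenic (left of each panel) and the 4 control libraries (right), with each library as a numbered point and mean ± SD as bars. The groups overlap in every panel, and control 1 is the lowest point for Tbx3, Tcf21, Twist2, Meox2, Prrx1 and Osr1.

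Tbx4 and Tbx5, the T-box genes tied to mesenchymal Fgf10, had small fold changes whose intervals span 1. Tbx4 (ENSMUSG00000000094, chromosome 11, 85886422 to 85916097 in GRCm38) measured 592, 614, 592 and 564 CPM in Fra-2 1 to Fra-2 4, against 573, 506, 558 and 546 CPM in control 1 to control 4. Its range over the libraries was narrow, the highest being 1.21 times the lowest, and Fra-2 4 lay below control 1. Its fold change was 1.08 with a 95% interval of 0.949 to 1.23 (edgeR adjusted p = 0.828). Tbx5 (ENSMUSG00000018263, chromosome 5, 119832668 to 119885219) measured 738, 869, 783 and 613 CPM in Fra-2 1 to Fra-2 4, against 722, 676, 695 and 678 CPM in control 1 to control 4. Fra-2 2 was the highest and Fra-2 4 the lowest of all 8 libraries, so the group labelled Fra-2 transgenic held both ends (SD 106 CPM, against 21.3 CPM in the controls). For Tbx5 the fold was 1.08 with an interval of 0.923 to 1.27 (edgeR adjusted p = 0.878). Its log2 fold change of 0.12 became 0.04 without Fra-2 2 and 0.20 without Fra-2 4. The ratio of Tbx4 to Tbx5 per kb was 0.971 to 1.26 in libraries labelled Fra-2 transgenic and 1.03 to 1.11 in the controls.

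Tbx3 had the smallest p of the 10 genes. It lies on chromosome 5 (ENSMUSG00000018604, 119670669 to 119684724), with its start 161999 bases from that of Tbx5. It measured 333, 300.1, 366 and 347 CPM in Fra-2 1 to Fra-2 4, against 209, 268, 222 and 322 CPM in control 1 to control 4. Control 4 lay above Fra-2 2, and otherwise every library labelled Fra-2 transgenic lay above the controls. Tbx3 averaged 337 ± 27.8 CPM in libraries labelled Fra-2 transgenic and 255 ± 51.5 CPM in the control libraries (SD, n = 4 each). Its log2 fold change was 0.40 with SE 0.131 (edgeR adjusted p = 0.266), a fold of 1.32 with an interval of 1.08 to 1.60. Without control 4 the log2 fold change was 0.53 and the adjusted p 0.0429. Without any other single library the adjusted p was 0.193 to 0.607. Tbx3os1, an antisense gene that shares 115 exon bases with Tbx3, averaged 4.55 CPM in libraries labelled Fra-2 transgenic and 2.80 CPM in the controls. The libraries do not mark strand, so reads of the shared bases cannot be assigned, but this partner's level was small beside that of Tbx3.

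Tbx2, the close relative of Tbx3, had both its highest and its lowest level in libraries labelled Fra-2 transgenic. Tbx2 (ENSMUSG00000000093, chromosome 11, 85832551 to 85841948) starts 53871 bases from Tbx4. It measured 135, 194, 143 and 164 CPM in Fra-2 1 to Fra-2 4, against 174, 159, 158 and 174 CPM in control 1 to control 4. Fra-2 2 was the highest library and Fra-2 1 the lowest, with the controls between them. For Tbx2 the fold was 0.954 with an interval of 0.803 to 1.13 (edgeR adjusted p = 0.945), and the log2 fold change of -0.07 was between -0.18 without Fra-2 2 and 0.01 without Fra-2 1. Within single libraries, the ratio of Tbx3 to Tbx2 per kb was 1.36, 0.847, 1.41 and 1.16 in Fra-2 1 to Fra-2 4, against 0.655, 0.923, 0.770 and 1.01 in control 1 to control 4. These ratios overlapped between the groups through Fra-2 2.

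Among the bHLH genes, Tcf21, needed for alveolar development and a marker of the lipid-storing fibroblast lineage, overlapped between the groups. Tcf21 (ENSMUSG00000045680, chromosome 10, 22817281 to 22820174) measured 14.5, 17.4, 22.9 and 20.8 CPM in Fra-2 1 to Fra-2 4, against 7.98, 16.01, 19.3 and 17.8 CPM in control 1 to control 4. Control 1 was far below the other 7 libraries. The fold change was 1.24 with an interval of 0.869 to 1.77 (edgeR adjusted p = 0.827), and the log2 fold change of 0.31 became 0.10 without control 1.

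The Twist genes, which encode closely related regulators of mesenchymal identity, were scarce and leaned to opposite sides. Twist1 (ENSMUSG00000035799, chromosome 12, 33957671 to 33959829) had 13 to 126 reads per library. It measured 0.375, 1.43, 1.39 and 1.70 CPM in Fra-2 1 to Fra-2 4, against 2.89, 1.65, 1.74 and 2.04 CPM in control 1 to control 4. Fra-2 1 was the lowest library and control 1 the highest, and Fra-2 4 lay above control 2. The fold was 0.587 with a wide interval of 0.310 to 1.11 (edgeR adjusted p = 0.694). Its log2 fold change of -0.77 became -0.46 without Fra-2 1, the library with 13 reads. Twist2 (ENSMUSG00000007805, chromosome 1, 91801461 to 91848028) had 58 to 177 reads per library. It measured 5.10, 3.66, 4.25 and 2.83 CPM in Fra-2 1 to Fra-2 4, against 1.33, 2.48, 3.06 and 4.30 CPM in control 1 to control 4. Its highest library was Fra-2 1, the lowest for Twist1, and its lowest was control 1, the highest for Twist1. The fold was 1.42 with an interval of 0.868 to 2.33 (edgeR adjusted p = 0.776). Its log2 fold change of 0.51 became 0.28 without control 1 and 0.80 without control 4. Gm29100, an antisense gene that shares 1477 exon bases with Twist2, averaged 0.423 CPM in libraries labelled Fra-2 transgenic and 0.450 CPM in the controls, so part of the Twist2 reads could not be assigned to a strand. How reads that match both Twist genes were counted is not given in the sources, and such reads were not measured.

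The homeobox genes Meox2, known from muscle and vessel development, and Prrx1, a factor of fibroblasts and limb mesenchyme, were both higher on average in libraries labelled Fra-2 transgenic without passing the test. Meox2 (ENSMUSG00000036144, chromosome 12, 37108540 to 37179534) measured 38.9, 39.96, 63.2 and 55.9 CPM in Fra-2 1 to Fra-2 4, against 23.96, 32.2, 49.1 and 41.5 CPM in control 1 to control 4. Control 3 and control 4 lay above Fra-2 1 and Fra-2 2. For Meox2 the fold was 1.35 with an interval of 0.973 to 1.87 (edgeR adjusted p = 0.641). Prrx1 (ENSMUSG00000026586, chromosome 1, 163245119 to 163313710) measured 44.7, 43.4, 55.5 and 52.8 CPM in Fra-2 1 to Fra-2 4, against 32.0, 42.2, 44.1 and 39.6 CPM in control 1 to control 4. Only control 3 reached above a library labelled Fra-2 transgenic, Fra-2 2. The fold change was 1.24 with an interval of 1.02 to 1.51 (edgeR adjusted p = 0.483). In both genes Fra-2 3 was the highest library, Fra-2 4 the next and control 1 the lowest.

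Osr1 (ENSMUSG00000048387, chromosome 12, 9570116 to 9581500) measured 40.02, 51.5, 54.4 and 55.3 CPM in Fra-2 1 to Fra-2 4, against 32.6, 45.4, 50.3 and 54.0 CPM in control 1 to control 4. Replicate 1 of each group was the lowest of its group, and the groups overlapped over most of their range. The fold change was 1.11 with an interval of 0.877 to 1.39 (edgeR adjusted p = 0.901), and the log2 fold change of 0.14 was between 0.02 without control 1 and 0.24 without Fra-2 1.

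**Figure D3:**
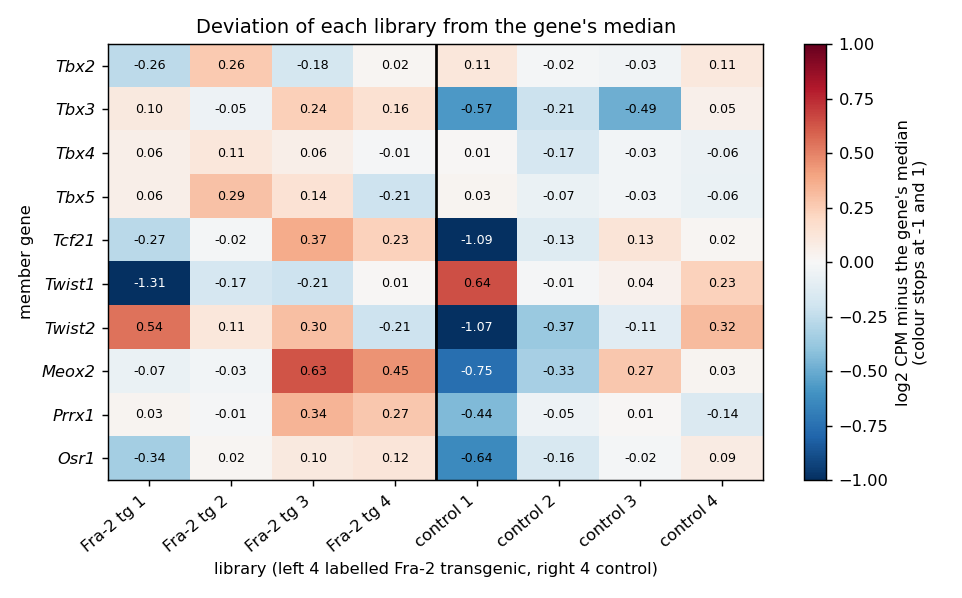
Log2 CPM (pseudocount 0.5) of each member gene in each library minus the gene's median over the 8 libraries, with the 4 libraries labelled Fra-2 transgenic on the left and the 4 controls on the right. Control 1 is the lowest library for 6 of the 10 genes, at -1.09 log2 units from the median for Tcf21 and -1.07 for Twist2, and Tbx4 varies least. The colour scale stops at -1 and 1.

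Control 1 stood apart from the other libraries over these genes. It was the lowest of the 8 for 6 of them, Tbx3, Tcf21, Twist2, Meox2, Prrx1 and Osr1, and the highest for Twist1. How often control 1 was the lowest over all tested genes was not measured. Control 1 was also lowest in the summed markers of 6 of 8 cell type lists, including the alveolar myofibroblast list itself, at 14249 to 16249 CPM in libraries labelled Fra-2 transgenic and 14022 to 16606 CPM in the controls. The other lists, of pericyte and smooth muscle markers, were lowest in Fra-2 2, with pericyte sums of 2657 to 3648 and 3256 to 3620 CPM and smooth muscle sums of 5952 to 7200.2 and 6005 to 6401 CPM in the same order. The 13 epithelial markers summed to 142 to 263 CPM in libraries labelled Fra-2 transgenic and 74.3 to 167 CPM in the controls, and the 12 endothelial markers to 78.7 to 97.8 and 57.5 to 83.5 CPM. The 12 leukocyte markers summed to 90.0 to 121 and 78.2 to 115 CPM and the 7 mesothelial markers in the table to 7.35 to 15.6 and 3.99 to 10.04 CPM, while 10 adventitial fibroblast markers summed to 1501 to 1816 and 1255 to 1571 CPM. Within the adventitial list Dcn and Serpinf1 rose, 2 of 9 tested, and within the alveolar myofibroblast list Stc1 rose and Enpp2 fell, 2 of 12 tested, beside 1.02% called over all genes. DESeq2 also called Lum of the adventitial list and Fgf18 of the alveolar myofibroblast list higher, beside 1.76% of all tested genes. Of 20 alternatives, Dcn lost its call in 6 (adjusted p up to 0.148), Stc1 in 6 (up to 0.126), Serpinf1 in 9 (up to 0.170) and Enpp2 in 11 (up to 0.185). The part of these cells in the values of the 10 genes was not tested. Fewer cells of a type and less RNA per cell cannot be told apart in bulk samples. Without control 1, the log2 fold changes were 0.32 for Tbx3, 0.10 for Tcf21, 0.28 for Twist2, 0.28 for Meox2, 0.23 for Prrx1 and 0.02 for Osr1, and 0 of the 10 genes passed in either direction.

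Relatives of the 10 genes included a pair that did pass. Of 6 tested relatives in the bHLH, homeobox and odd-skipped families, Osr2 rose and Scx fell in libraries labelled Fra-2 transgenic, and 4 did not pass. The median log2 fold change of the 6 was -0.04. Over all tested genes 0.72% were called higher and 0.298% lower. Osr2, the paralog of Osr1 known from palate and joint development, lies on chromosome 15 (ENSMUSG00000022330, 35296098 to 35303305). It measured 6.91, 4.68, 5.76 and 5.40 CPM in Fra-2 1 to Fra-2 4, against 1.42, 2.39, 2.97 and 2.62 CPM in control 1 to control 4. All 4 libraries labelled Fra-2 transgenic lay above all controls, and the log2 fold change was 1.28 with SE 0.263 (edgeR adjusted p = 0.0302), a fold of 2.43 with an interval of 1.64 to 3.59. Per kb, Osr2 remained far scarcer than Osr1, at 1.11 over all libraries against 23.2 for Osr1. Scx, which encodes the tendon bHLH factor scleraxis, lies on chromosome 15 as well (ENSMUSG00000034161, 76457452 to 76459458). It measured 8.67, 6.74, 10.1 and 9.91 CPM in Fra-2 1 to Fra-2 4, against 18.8, 13.4, 14.6 and 17.1 CPM in control 1 to control 4. All 4 libraries labelled Fra-2 transgenic lay below all controls, and the log2 fold change was -0.85 with SE 0.172 (edgeR adjusted p = 0.0283), a fold of 0.555. Both calls were close to the threshold. Osr2 kept its call only when control 4 (adjusted p = 0.0463) or Fra-2 2 (0.0286) was the library left out, and reached 0.141 among the other 6 omissions. Scx kept its call only when control 2 (0.0484) or Fra-2 2 (0.0491) was left out, reached 0.116 among the other 6, and had 0.055 with sex as a covariate. Meox1, the paralog of Meox2, averaged 38.4 ± 10.7 CPM in libraries labelled Fra-2 transgenic and 42.3 ± 8.99 CPM in the controls.

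**Figure D4:**
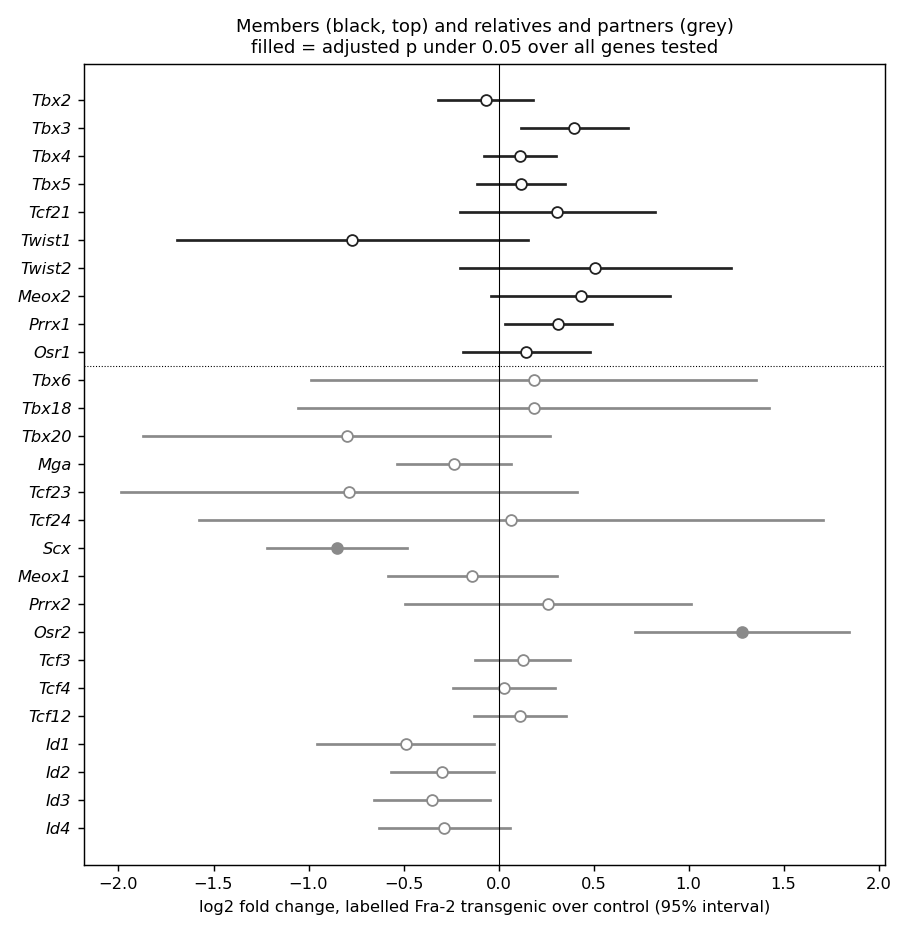
Log2 fold change, libraries labelled Fra-2 transgenic over control, with 95% interval for the member genes (black) and for tested relatives and dimer partners (grey), where filled points passed an adjusted p under 0.05. Only Osr2 and Scx are filled, and intervals are short for Tbx4, Tbx2 and Tbx5 and long for Twist1 and Twist2.

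The dimer partners of the bHLH genes did not pass. Of 7 tested genes for E proteins and their Id inhibitors, 0 rose and 0 fell in edgeR, DESeq2 and limma-voom. At an unadjusted edgeR p under 0.05, 0 were higher and 3 lower, beside 8.71% of all tested genes in either direction. Those 3 were Id1, Id2 and Id3, which encode proteins that block E proteins from binding DNA. Id3, the most abundant of the list per kb, measured 47.2 ± 8.99 CPM in libraries labelled Fra-2 transgenic and 60.2 ± 6.10 CPM in the control libraries (SD, n = 4 each, log2 fold change -0.35, edgeR adjusted p = 0.465). Fra-2 1, at 33.9 CPM, lay below the other libraries of its group, at 50.1 to 53.3 CPM. The E protein genes Tcf3, Tcf4 and Tcf12 had log2 fold changes of 0.13, 0.03 and 0.11. The median of the list was -0.29.

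Of the other T-box genes, 4 of 13 in the table were tested, and 0 rose and 0 fell in edgeR, DESeq2 and limma-voom, with 0 at an unadjusted p under 0.05. Of the 13, 10 averaged under 1 CPM. Mga, whose product carries a T-box and a bHLH domain, was the most abundant, at 135 ± 22.8 CPM in libraries labelled Fra-2 transgenic and 159 ± 27.4 CPM in the controls (edgeR adjusted p = 0.725). Tbx20, known from the heart, measured 2.40 ± 1.52 and 4.18 ± 2.40 CPM in the same order (edgeR adjusted p = 0.746).

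Of 35 other lung mesenchyme transcription factor genes tested, 0 rose and 0 fell in edgeR and in limma-voom, and the median log2 fold change was 0.12. DESeq2 called 3 of the 35 higher, Tshz3, Runx2 and Snai1, which were named for that reason, beside 1.76% of all tested genes. At an unadjusted edgeR p under 0.05, 5 were higher and 1 lower, beside 8.71% of all tested genes in either direction. Foxf2, a forkhead factor of lung mesenchyme and the most abundant of the list per kb, measured 344 ± 62.3 CPM in libraries labelled Fra-2 transgenic and 337 ± 24.9 CPM in the controls. Of 17 tested signalling and target genes linked to T-box factors, 0 rose and 0 fell in edgeR, DESeq2 and limma-voom, with 1 higher and 1 lower at an unadjusted p under 0.05 and a median of 0.06. Bmp4, a BMP ligand and the most abundant of the list per kb, measured 515 ± 160 CPM in libraries labelled Fra-2 transgenic and 532 ± 77.2 CPM in the controls. Fgf10, the ligand that Tbx4 and Tbx5 act with, measured 7.78 ± 1.19 and 5.93 ± 1.06 CPM in the same order (edgeR adjusted p = 0.632). Cdkn1a and Frzb, genes held back by Tbx2 and Tbx3 in mouse lung mesenchyme, measured 41.4 and 41.5 CPM and 2.75 and 3.52 CPM in the same order, and Cdkn2a had a median of 0.

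Around the 10 genes on their chromosomes, 108 tested genes had their start within 1 Mb of a member's start, and 1 of them was called, a share near the 1.02% called over all tested genes. That gene, Fmo2, a flavin monooxygenase gene 414984 bases from Prrx1, measured 283, 338, 322 and 263 CPM in Fra-2 1 to Fra-2 4, against 189 to 193 CPM in the 4 controls. Its log2 fold change was 0.67 with SE 0.0999 (edgeR adjusted p = 0.00451). None of the 28 tested neighbours of Tbx2 or the 10 of Tbx3 passed in edgeR.

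The genes most like each member across the 8 libraries were found by the Pearson correlation of log2 CPM over 9690 genes whose mean reached 5 CPM. All genes share the same differences between libraries in depth, sex and group, and with so many genes high values arise readily. The correlations are therefore a description. Tbx3 was most like Fam171b (r = 0.96) and Tgm2 (0.95), Tbx4 like Map3k3 (0.98) and Inpp5b (0.97), Tbx5 like Wipi2 (0.98) and Stx1a (0.95), and Tbx2 like Vps72 (0.94) and S100pbp (0.93). The genes low in control 1 had Maff (0.97) and Brap (0.97) for Tcf21, Slc1a3 (0.98) and Enpep (0.97) for Meox2, Slc23a2 (0.97) and Atp8b1 (0.96) for Prrx1, and Tnks (0.99) and Slc39a9 (0.97) for Osr1. None of these 16 genes passed the edgeR test between the groups.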

How the data were processed

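RNA was measured in 8 libraries of lung myofibroblasts. Per the labels' protocols, mRNA from 50 ng of total RNA was amplified to cDNA (NuGEN Ovation RNA-Seq System V2) and made into libraries with Nextera XT. Amplification from little RNA can add spread, and no named step marks strand. The authors deposited raw counts per gene, 1 column per sample. GRCh38, a human build, is named in the submitters' processing notes, although the identifiers are mouse Ensembl genes. For the aligner, counter and annotation: not given in the sources used here. Symbols were found for 42462 identifiers, and positions and merged exon lengths come from GENCODE M21 (GRCm38).

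Counts were analysed in R 4.3.3 with edgeR 4.0.16: filterByExpr (minimum count 10, minimum total 15), TMM scaling, robust dispersions and the two-sided quasi-likelihood F-test with no covariate, adjusted by Benjamini-Hochberg at 0.05. SE was taken as the size of the log2 fold change over root F. DESeq2 1.42.0, limma-voom (limma 3.58.1), other scalings, filters, covariates and leaving out each library were alternatives. The procedure was tested on simulated data. Members and lists were chosen with earlier results of these data known. Named genes are the members, Fosl2, each list's called (1 per marker list) and most abundant members, called neighbours and the genes most alike a member. Others named (Tbx20, Tshz3, Runx2, Snai1, Id1, Id2, E protein genes, Fgf10, Cdkn1a, Frzb, Cdkn2a, Serpinf1, Enpp2 and other markers) were chosen after their values were seen. Libraries within a group differed by a chi-square per gene of 36.0 to 155, the highest between control 2 and control 4. These values were read only as a sign that no library was a copy of another, and not as a check of quality. All libraries were kept. Total counts set the counting error.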

Additional observations from a re-analysis of the deposited data

Results flagged for a closer look

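In 3 of 94 groups of 4 libraries checked, a library stood far from the other 3 by Dixon's test, where chance gives about 1 in 20. Meox1 was at 22.5 CPM in Fra-2 2, against 41.7 to 45.6 CPM in the other libraries labelled Fra-2 transgenic. Id3 was at 33.9 CPM in Fra-2 1, against 50.1 to 53.3 CPM in the others of its group. Acta2, smooth muscle actin, was at 3901 CPM in control 4, against 3035 to 3153 CPM in the other controls. None of the 10 member genes was flagged in either group.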

How the results depend on the processing

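Over 20 alternatives, the 10 member genes kept their direction and stayed short of the threshold in 198 of 200 values. The exceptions were Tbx3 without control 4 and Tbx2 without Fra-2 1. The number of member genes higher was 0, and 0 to 1 when single libraries were left out. DESeq2 gave 272 genes higher and 97 lower over all genes in place of 111 and 46, and an adjusted p under 0.10 gave 73 lower. Leaving out single libraries gave 50 to 153 higher and 22 to 52 lower. Several fits with fewer samples gave low counts. These were 50 and 26 without control 2, 67 and 23 without control 3, and 54 and 22 without Fra-2 1. They were 50 and 31 without Fra-2 3, 72 and 35 without Fra-2 4, and 81 and 32 without control 1. The fit of all libraries with sex as a covariate also gave fewer than the main fit, 90 and 34. When single libraries were left out, the log2 fold change turned sign for 8 named genes, none of them called, and the cause was not tested. It ran from -0.178 to 0.008 for Tbx2, -0.2303 to 0.0489 for Meox1, -0.088 to 0.122 for Foxf2, -0.2542 to 0.1155 for Bmp4, -0.0229 to 0.1751 for Acta2, -0.0071 to 0.1047 for Wipi2, -0.004 to 0.1685 for Tnks and -0.0147 to 0.1824 for Slc39a9. Twist1, with as few as 13 reads in a library, is the member whose precision depth limits most.

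Replicate numbers are shared by the groups but pair nothing in the labels. Deviations of same-numbered libraries correlated at -0.02, 0.22, 0.11 and 0.33, and 2 of 4 libraries labelled Fra-2 transgenic were most like the control of their own number. A fit with the replicate block gave 137 genes higher and 53 lower, and 0 of the 10 members. Each member's edgeR adjusted p was lower with the block than without it. The lowest was 0.103 for Meox2, against 0.641 without the block, and Tcf21 had 0.4675 against 0.827.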
